A study of Mus musculus with 16 samples.

Results

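The genes described here are 10 genes of autophagy and mitophagy, namely Ulk1, Becn1, Map1lc3a, Map1lc3b, Gabarapl1, Sqstm1, Bnip3, Bnip3l, Ctsl and Tfeb, measured in mouse quadriceps muscle. They were taken by name, with every array probe whose accession matched one of these symbols, which gave 14 probes of 41174 on the array and 10 genes of the 17178 that could be given a symbol. Ulk1, Map1lc3b, Gabarapl1 and Bnip3l had 2 probes each and the other 6 genes had 1. The muscle came from 4 groups of 4 mice: KLF15 knockout (KO) mice given dexamethasone, KO mice given vehicle, wild-type (WT) mice given dexamethasone and WT mice given vehicle. Dexamethasone, a synthetic glucocorticoid, was injected into the peritoneum once at 2 mg/kg, vehicle in the same volume, and the muscle was taken 8 h later. KLF15 is a zinc-finger transcription factor. Neither the labels nor the files name the strain, the age or the extent of the deletion. The study asked how muscle transcripts respond to a glucocorticoid and whether that response depends on KLF15.

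Autophagy encloses cytoplasm in a double membrane and delivers it to the lysosome for breakdown. The ULK1 kinase complex starts the process, the Beclin 1 lipid kinase complex marks the site, proteins of the ATG8 family (LC3 and GABARAP) are attached to the growing membrane, and receptors such as p62 bind both the cargo and an ATG8 protein. In mitophagy the cargo is the mitochondrion, and BNIP3 and BNIP3L sit on its outer membrane as receptors. Lysosomal proteases such as cathepsin L digest the contents, and TFEB is a transcription factor for lysosomal and autophagy genes. In skeletal muscle the pathway is one of the main routes of protein breakdown during fasting and glucocorticoid excess.

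Each animal had 1 array. The signal of a probe is given as a log2 level, its log2 intensity minus the 75th percentile of the same array, so a positive level is brighter than that percentile. The 75th percentile itself was between 537 and 1133 intensity units, the share of spots well above background was 66.3% to 80.6%, and arrays of 1 group correlated at 0.936 to 0.990 across probes. With 4 arrays per group, this number limits how precisely each level is known. All 9 skeletal fibre markers, among them Acta1, Ckm and Myh4, were well above background on the 16 arrays. The arrays lay on 8 slides, and 3 arrays, dexamethasone-treated WT replicates 1 and 3 and vehicle-treated KO replicate 2, were alone on theirs. The scanner software marked 3 arrays for evaluation, all dexamethasone-treated (KO replicates 2 and 4 and WT replicate 1), and they were kept. Dexamethasone-treated WT replicate 3 was the only array scanned on a second day and had the lowest 75th percentile, 537. Dexamethasone-treated WT replicate 3 and dexamethasone-treated KO replicate 1 stood apart in neutrophil markers, whose list medians were 7.11 and 5.72 above the mean of all arrays, against -2.02 to 0.68 on the others.

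Klf15 itself, by its brighter probe, had levels of 0.61, 0.26, 0.68 and 0.64 in dexamethasone-treated KO muscle, against 4.15, 4.81, 3.99 and 4.45 in dexamethasone-treated WT muscle. The levels were -1.24, -0.78, -0.44 and -0.07 in vehicle-treated KO muscle, against 3.81, 3.29, 2.84 and 3.40 in vehicle-treated WT muscle. Every KO array lay below every WT array for both Klf15 probes. The labels do not say whether either probe lies in the deleted part. Fkbp5, a well-known target of the glucocorticoid receptor, rose by its brightest probe 6.68-fold with dexamethasone in KO muscle (log2 change 2.74) and 7.91-fold in WT muscle (2.98). Its other probes differed in size of change. Group means of A_52_P481493 went from 0.74 with vehicle to 2.05 with dexamethasone in KO muscle and from 1.03 to 1.32 in WT muscle. Those of A_52_P337899 went from -2.48 to 0.11 and from -2.49 to -0.08.

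With dexamethasone the mitophagy receptor gene Bnip3 and the ATG8 gene Gabarapl1 rose in both genotypes, by 1.43-fold to 1.52-fold. Bnip3l, the relative of Bnip3, also rose in WT muscle, 1.34-fold, and gave a log2 change of 0.06 in KO muscle, a difference between genotypes that did not pass its own test. No member passed the test between KO and WT muscle under dexamethasone or under vehicle, although Bnip3l passed under dexamethasone with slide as a random block (adjusted p 0.0467). By their brightest probes 2 of 10 members rose in KO muscle and 3 of 10 rose in WT muscle, and none fell in either. With all 16 arrays, 10.4% of all 32401 probes tested passed with dexamethasone in KO muscle (5.20% higher, 5.21% lower) and 12.0% in WT muscle (5.35% higher, 6.61% lower). The members were chosen with earlier results of these data known. Without the 2 arrays high in neutrophil markers, Bnip3 still passed in both genotypes and Gabarapl1 in WT muscle (adjusted p 0.0355). In that smaller fit Gabarapl1 in KO muscle (0.55, adjusted p 0.0756) and Bnip3l in WT muscle (0.44, adjusted p 0.0790) did not pass. The test was limma's moderated test over all 16 arrays with Benjamini-Hochberg adjustment over all probes tested and a threshold of 0.05. All 14 member probes entered it, each well above background on the 16 arrays. In whole tissue, fewer cells of a type and less RNA per cell cannot be told apart, and this holds for every value given here.

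The plot of differences shows the same 14 probes in each comparison. In WT muscle the change with dexamethasone was positive for 10 of 10 members and 14 of 14 probes, with a member median of 0.32, while all probes had a median of -0.07 and 13706 of 32401 were positive. In KO muscle 7 of 10 members were positive, with a member median of 0.09, against a median of 0.05 for all probes, of which 18134 were positive. The medians of all probes depend on how the arrays are scaled. With each array's median in place of its 75th percentile, the median of all probes in the WT comparison was 0.17, and the share of passing probes that were higher was 80.9% in place of 44.7%. A member's distance from the median of all probes is the same under both scalings: for Bnip3 it was 0.52 in KO muscle and 0.67 in WT muscle, and for Gabarapl1 it was 0.47 and 0.67.

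**Figure D1:**
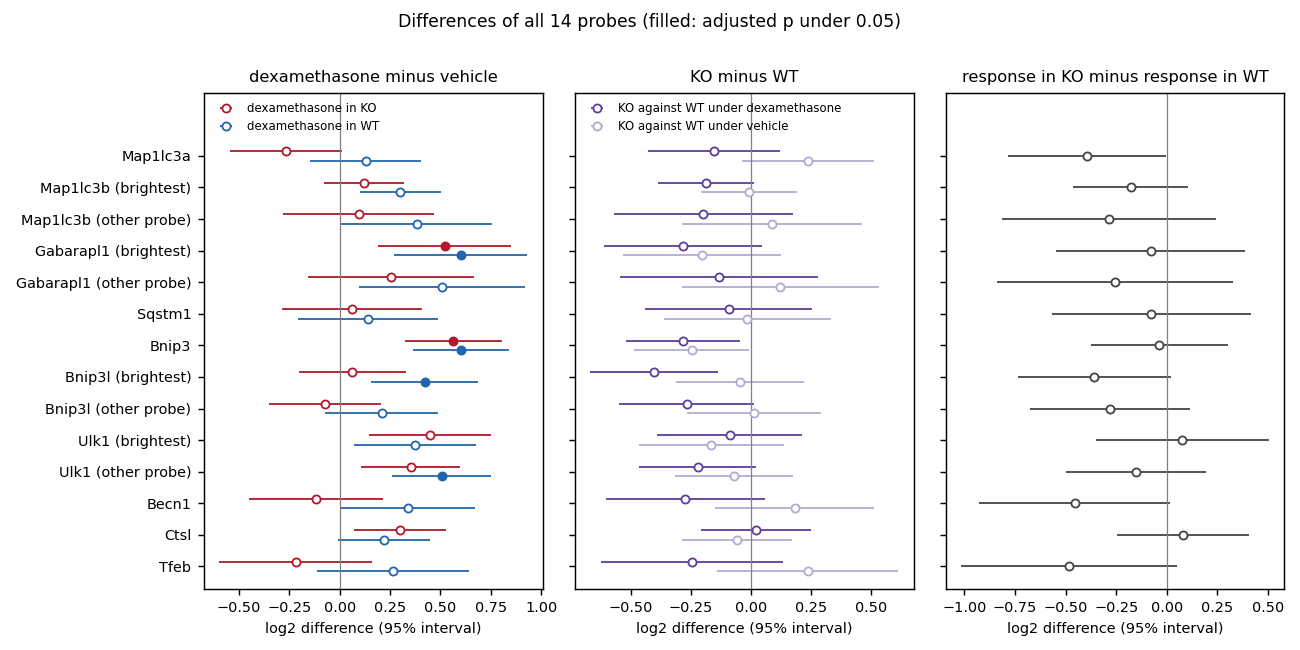
Differences between groups in log2 units for the 14 probes of the 10 members, with 95% intervals and filled points where adjusted p was under 0.05. The panels show dexamethasone minus vehicle in KO and WT muscle, KO minus WT muscle under dexamethasone and vehicle, and the interaction, where no point is filled; Bnip3 and the brighter Gabarapl1 probe are filled in both genotypes in the first panel.

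Sequences upstream of Bnip3 and Gabarapl1 are shown because these are the members that rose in both genotypes. RefSeq (GRCm38.p6) gave promoter windows of 300 bases, 250 before the gene's start and 50 after it, for 7 of the 10 members, 9 windows in all since Tfeb has 3, and not for Map1lc3a, Becn1 or Bnip3l. The letters are printed 5′ to 3′ on the strand of the gene, and capitals mark every match to the searched motifs. The Bnip3 window lies at chr7:138909457-138909756 on the minus strand and the Gabarapl1 window at chr6:129532942-129533241 on the plus strand.
Bnip3: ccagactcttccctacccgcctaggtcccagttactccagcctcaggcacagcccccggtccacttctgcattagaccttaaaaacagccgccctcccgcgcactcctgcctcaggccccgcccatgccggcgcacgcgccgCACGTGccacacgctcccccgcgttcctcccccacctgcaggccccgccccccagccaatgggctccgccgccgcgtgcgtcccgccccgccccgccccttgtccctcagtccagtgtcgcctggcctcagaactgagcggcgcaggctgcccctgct
Gabarapl1: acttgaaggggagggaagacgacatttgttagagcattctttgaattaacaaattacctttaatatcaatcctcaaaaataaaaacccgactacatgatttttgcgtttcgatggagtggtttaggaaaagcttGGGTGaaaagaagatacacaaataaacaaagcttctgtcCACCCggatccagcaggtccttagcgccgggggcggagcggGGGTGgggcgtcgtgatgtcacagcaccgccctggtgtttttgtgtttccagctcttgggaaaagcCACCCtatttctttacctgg

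The motifs were searched on both strands. GTAAACA, letters bound by FoxO factors, was found in 0 of the 9 member windows and in 3.65% of all 32851 windows. Other forms of this motif were not searched, and the Gabarapl1 window holds ATAAACA, which begins with A in place of G. AGAACA, the half-site of the glucocorticoid receptor, was found in 0 of 9 and in 6233 of all windows, and the full palindrome of this receptor in 0 of 9 and in 3 of all windows. The E-box CACGTG, which is the core of the element bound by TFEB, was found in 2 of 9 member windows, those of Bnip3 and Ctsl, and in 7.15% of all windows. In Bnip3 it begins at position -108 from the start, and it contains ACGTG, the core of the hypoxia response element, which 19.6% of all windows hold. CACCC, a box bound by KLF proteins, was found in 6 of 9 member windows and in 57.5% of all windows, and the windows without it are that of Bnip3 and those of the other 2 starts of Tfeb. Gabarapl1 has 4 matches, which begin at positions -116, -77, -36 and 31, counted from the start. The Bnip3 window is 71.7% G and C and the Gabarapl1 window 46.3%, where the median of all windows is 52.7%. A match describes letters and says nothing of binding, and windows without a match can be bound elsewhere.

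Of the initiation genes, Ulk1 encodes the kinase that starts autophagosome formation. Its brighter probe, A_52_P630877, had levels of 5.03, 5.50, 5.40 and 4.95 in dexamethasone-treated KO muscle, against 4.87, 4.79, 4.62 and 4.80 in vehicle-treated KO muscle. In dexamethasone-treated WT muscle the levels were 5.47, 5.25, 5.18 and 5.33, against 4.77, 4.75, 5.24 and 4.98 in vehicle-treated WT muscle. The KO groups did not overlap, and in WT muscle vehicle replicate 3 lay among the treated arrays. The change was 0.45 (adjusted p 0.0591) in KO muscle and 0.37 (adjusted p 0.107) in WT muscle, so neither passed. The second Ulk1 probe, A_52_P630883, gave 0.35 in KO muscle (adjusted p 0.0678) and 0.51 in WT muscle, 1.42-fold, which passed (adjusted p 0.0109). Its treated arrays lay above its vehicle arrays in both genotypes, at 3.59 to 3.66 against 3.12 to 3.42 in KO muscle and 3.71 to 4.11 against 3.15 to 3.61 in WT muscle. With the mean of both Ulk1 probes, the change passed in KO muscle (0.40, adjusted p 0.0257) and in WT muscle (0.44, adjusted p 0.0157). With the deposited log2 values the brighter probe passed in KO muscle (adjusted p 0.0247) and WT muscle (adjusted p 0.0350). In KO muscle it also passed with probes well above background on all arrays (adjusted p 0.0409) and with slide as a fixed (adjusted p 0.0486) or random block (adjusted p 0.00445). Leaving out vehicle-treated WT replicate 3 made it pass in both genotypes, and leaving out dexamethasone-treated KO replicate 4 in KO muscle.

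Becn1 encodes Beclin 1, a subunit of the lipid kinase complex that nucleates the membrane. It had levels of 1.92 to 2.17 in dexamethasone-treated KO muscle, against 1.79 to 2.42 in vehicle-treated KO muscle, and 2.04 to 2.44 in dexamethasone-treated WT muscle, against 1.69 to 2.23 in vehicle-treated WT muscle. The groups overlapped in both comparisons, and the changes were -0.12 (adjusted p 0.769) and 0.34 (adjusted p 0.188). The interaction, the KO change minus the WT change, was -0.46 with a 95% interval of -0.93 to 0.02 (adjusted p 0.399).

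Among the ATG8 genes, Gabarapl1 encodes a GABARAP-type protein. Its brighter probe, A_52_P633410, had levels of 5.25, 5.53, 5.52 and 5.08 in dexamethasone-treated KO muscle, against 4.71, 4.78, 4.76 and 5.05 in vehicle-treated KO muscle. In dexamethasone-treated WT muscle the levels were 5.48, 6.03, 5.48 and 5.53, against 5.09, 4.73, 5.18 and 5.12 in vehicle-treated WT muscle. Neither pair of groups overlapped, although in KO muscle the lowest treated array, 5.08, lay just above the highest vehicle array, 5.05. Gabarapl1 rose 1.43-fold in KO muscle (log2 change 0.52, SE 0.15, adjusted p 0.0454) and, in WT muscle, 1.52-fold (0.60, SE 0.15, adjusted p 0.0209). The KO call was lost when any 1 of 11 arrays was left out (dexamethasone-treated KO replicates 1 to 3, vehicle-treated KO replicates 1 to 3, dexamethasone-treated WT replicates 3 and 4, vehicle-treated WT replicates 1, 3 and 4), with changes of 0.46 to 0.55 and adjusted p of 0.0526 to 0.133. The WT call was lost when vehicle-treated WT replicate 2 was left out (0.50, adjusted p 0.0754). The KO call was also lost with the mean of both probes (0.39, adjusted p 0.166), and with slide as a fixed block, to which the 3 arrays alone on a slide add no information here or below, neither call held (adjusted p 0.148 in KO muscle and 0.200 in WT muscle). Other scalings, values and fits that ended these calls were median and quantile scaling and no filter in KO muscle, and normexp, the deposited log2 values, a replicate block and only the groups compared in both. The second probe, A_51_P304757, which was much dimmer, gave 0.25 in KO muscle (adjusted p 0.531) and 0.51 in WT muscle (adjusted p 0.106), with overlapping groups in both. Group means of the brighter probe were 5.35 ± 0.22 in dexamethasone-treated KO muscle, 4.83 ± 0.15 in vehicle-treated KO muscle, 5.63 ± 0.27 in dexamethasone-treated WT muscle and 5.03 ± 0.20 in vehicle-treated WT muscle (SD, n = 4 each). The KO minus WT difference was -0.28 under dexamethasone (adjusted p 0.411), and the 2 groups overlapped.

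Map1lc3b encodes LC3B, the ATG8 protein most often used as a marker of autophagosomes. Its brighter probe, A_51_P126177, had levels of 5.64, 5.82, 5.77 and 5.76 in dexamethasone-treated KO muscle, against 5.67, 5.57, 5.60 and 5.66 in vehicle-treated KO muscle. In dexamethasone-treated WT muscle the levels were 5.87, 6.20, 5.84 and 5.84, against 5.71, 5.49, 5.67 and 5.66 in vehicle-treated WT muscle. The WT groups did not overlap and the KO groups did. The change was 0.12 in KO muscle (adjusted p 0.535) and 0.30 in WT muscle (adjusted p 0.0502), and the second probe gave 0.10 (adjusted p 0.844) and 0.38 (adjusted p 0.187). The WT change of the brighter probe passed in 3 of 29 alternatives. These were arrays scaled to their median (0.55, adjusted p 0.0217), probes well above background on all arrays (0.30, adjusted p 0.0367) and slide as a random block (0.34, adjusted p 0.0111). Map1lc3a, which encodes LC3A, had levels of 4.40 to 4.62 in dexamethasone-treated KO muscle, against 4.56 to 4.96 in vehicle-treated KO muscle, and 4.46 to 5.04 in dexamethasone-treated WT muscle, against 4.45 to 4.76 in vehicle-treated WT muscle. Its changes were -0.27 (adjusted p 0.253) and 0.13 (adjusted p 0.566), and its interaction was -0.39 (adjusted p 0.383).

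**Figure D2:**
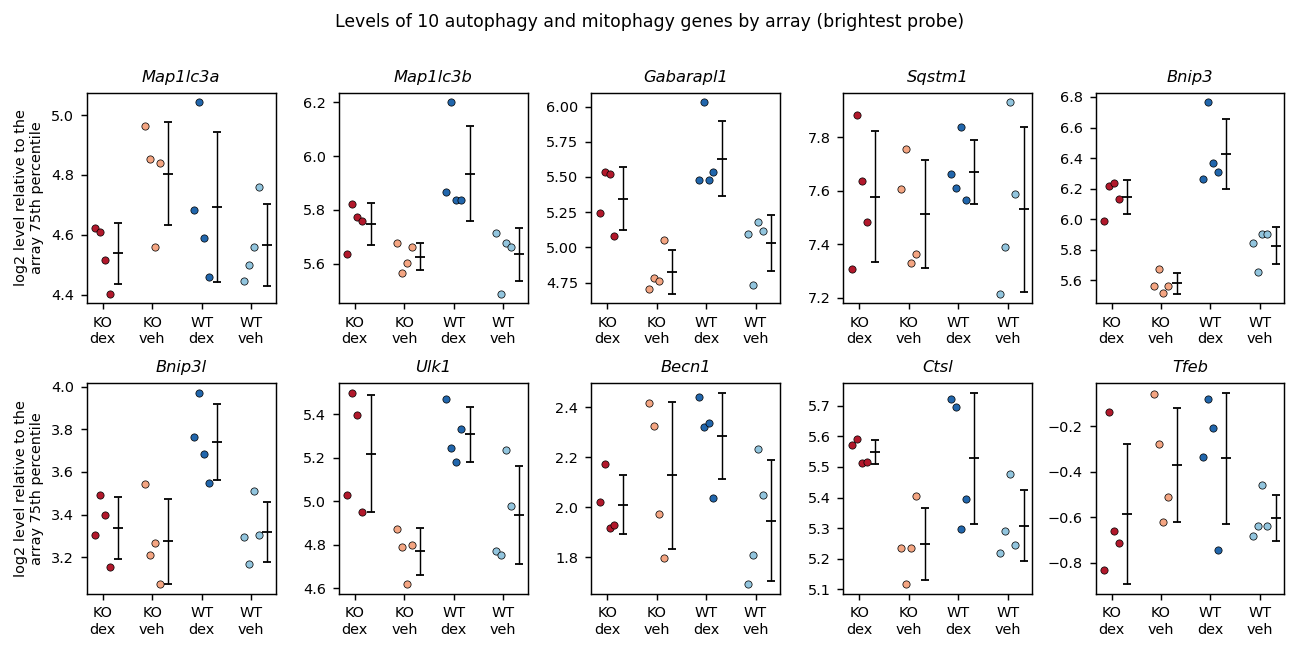
Log2 level of the brightest probe of each of the 10 members on each of the 16 arrays, where 0 is the 75th percentile of the array, with the mean and SD of each group (n = 4). For Bnip3 and Gabarapl1 the dexamethasone-treated arrays lie above the vehicle-treated ones in both genotypes, while for Sqstm1 and Becn1 the groups overlap.

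Of the receptors, Bnip3 encodes an outer mitochondrial membrane protein that binds ATG8 proteins. Its probe, A_51_P155234, had levels of 5.99, 6.22, 6.24 and 6.13 in dexamethasone-treated KO muscle, against 5.56, 5.67, 5.51 and 5.56 in vehicle-treated KO muscle. In dexamethasone-treated WT muscle the levels were 6.26, 6.77, 6.37 and 6.31, against 5.85, 5.65, 5.90 and 5.90 in vehicle-treated WT muscle. Neither pair overlapped: each treated array lay above every vehicle array of its genotype. Bnip3 rose 1.48-fold in KO muscle (log2 change 0.56, SE 0.11, 95% interval 0.33 to 0.80, adjusted p 0.00487) and 1.52-fold in WT muscle (0.60, SE 0.11, 0.36 to 0.84, adjusted p 0.00325). Both calls held with each of the 16 arrays left out in turn, with changes of 0.53 to 0.62 in KO muscle and 0.49 to 0.66 in WT muscle. They were lost with normexp background correction (adjusted p 0.477 in KO muscle and 0.438 in WT muscle), in KO muscle with arrays scaled to their median (adjusted p 0.101) and in WT muscle with slide as a fixed block (adjusted p 0.0570). Within the slides that held both groups, with 1 array of each, its change was 0.43, 0.62 and 0.65 in KO muscle and 0.86 in WT muscle. The WT value rests on slide 5 alone and on dexamethasone-treated WT replicate 2, the highest array of its group (6.77). The other dexamethasone-treated WT arrays shared no slide with a vehicle-treated WT array, so the WT comparison is mostly between slides. The interaction was -0.04, with a 95% interval of -0.37 to 0.30 (adjusted p 0.963). The Bnip3 level averaged 6.14 ± 0.11 in dexamethasone-treated KO muscle, 5.58 ± 0.07 in vehicle-treated KO muscle, 6.43 ± 0.23 in dexamethasone-treated WT muscle and 5.83 ± 0.12 in vehicle-treated WT muscle (SD, n = 4 each). From the highest, the order was dexamethasone-treated WT, dexamethasone-treated KO, vehicle-treated WT and vehicle-treated KO muscle, as for Gabarapl1. The KO minus WT difference did not pass under dexamethasone (-0.28, 95% interval -0.52 to -0.05, adjusted p 0.227) or under vehicle (-0.25, adjusted p 0.625).

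Bnip3l, also called Nix, encodes the receptor that clears mitochondria from maturing red cells. Its brighter probe, A_51_P269456, had levels of 3.31, 3.49, 3.40 and 3.15 in dexamethasone-treated KO muscle, against 3.55, 3.21, 3.27 and 3.07 in vehicle-treated KO muscle. In dexamethasone-treated WT muscle the levels were 3.77, 3.97, 3.68 and 3.55, against 3.30, 3.17, 3.51 and 3.31 in vehicle-treated WT muscle. The WT groups did not overlap, and the KO groups overlapped over most of their range. In WT muscle Bnip3l rose 1.34-fold, a log2 change of 0.42 (SE 0.12, adjusted p 0.0410), and the change was 0.06 in KO muscle (adjusted p 0.859). The WT call was lost when any 1 of 10 arrays was left out (dexamethasone-treated KO replicates 1 and 3, vehicle-treated KO replicates 2 and 3, dexamethasone-treated WT replicates 1 to 3, vehicle-treated WT replicates 1, 2 and 4), with changes of 0.34 to 0.44 and adjusted p of 0.0521 to 0.129. The dimmer probe, A_52_P13612, gave 0.21 in WT muscle (adjusted p 0.345) and -0.07 in KO muscle (adjusted p 0.840). The interaction was -0.36 with a 95% interval of -0.74 to 0.02 (adjusted p 0.407), so a difference between the genotypes in this response was not shown. Under dexamethasone Bnip3l was at 3.15 to 3.49 in KO muscle and 3.55 to 3.97 in WT muscle, groups that did not overlap, and the difference of -0.40 (95% interval -0.67 to -0.14) did not pass (adjusted p 0.113). With slide as a random block it did (-0.39, adjusted p 0.0467). In the main fit the dimmer probe gave -0.27, which did not pass. On slide 8, the only slide with both groups and 1 array of each, the difference was -0.15 for the brighter probe and 0.06 for the dimmer probe.

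Sqstm1 encodes p62, a receptor for ubiquitin-tagged cargo. Its levels were 7.31 to 7.88 in dexamethasone-treated KO muscle, against 7.33 to 7.75 in vehicle-treated KO muscle, and 7.57 to 7.84 in dexamethasone-treated WT muscle, against 7.22 to 7.93 in vehicle-treated WT muscle. The groups overlapped in every comparison. The changes with dexamethasone were 0.06 (adjusted p 0.896) in KO muscle and 0.14 (adjusted p 0.628) in WT muscle.

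Of the lysosomal members, Ctsl encodes cathepsin L. Its levels were 5.57, 5.59, 5.51 and 5.52 in dexamethasone-treated KO muscle, against 5.24, 5.12, 5.24 and 5.40 in vehicle-treated KO muscle. In dexamethasone-treated WT muscle they were 5.72, 5.70, 5.30 and 5.40, against 5.22, 5.29, 5.48 and 5.24 in vehicle-treated WT muscle. The KO groups did not overlap and the WT groups did, and the changes of 0.30 (adjusted p 0.0984) and 0.22 (adjusted p 0.215) did not pass. With slide as a random block the KO change passed (0.30, adjusted p 0.0201), and with arrays scaled to their median the WT change did (0.46, adjusted p 0.0278). Tfeb had levels of -0.83 to -0.14 in dexamethasone-treated KO muscle, against -0.62 to -0.06 in vehicle-treated KO muscle, and -0.74 to -0.08 in dexamethasone-treated WT muscle, against -0.68 to -0.46 in vehicle-treated WT muscle. Its changes were -0.22 (adjusted p 0.565) and 0.26 (adjusted p 0.377), with an interaction of -0.48 (95% interval -1.02 to 0.05, adjusted p 0.433).

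Across the members, the treated and vehicle arrays of the brightest probe did not overlap for 4 of 10 genes in KO muscle (Bnip3, Gabarapl1, Ulk1 and Ctsl) and for 4 of 10 in WT muscle (Bnip3, Gabarapl1, Bnip3l and Map1lc3b). Of all probes, 8.14% and 8.08% lay higher without overlap in KO and WT muscle. Both comparisons of dexamethasone and vehicle use different animals, but each shares arrays with the comparisons of genotypes.

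Between genotypes, KO minus WT differences under dexamethasone were between -0.40 for Bnip3l and 0.02 for Ctsl, and 9 of 10 members had a negative sign. On slide 8, the only slide with both groups and 1 array of each, the brightest probes gave both signs. Differences there were -0.15 for Bnip3l, -0.12 for Becn1, -0.08 for Bnip3, -0.06 for Map1lc3b and -0.01 for Gabarapl1. They were 0.12 for Ctsl, 0.08 for Tfeb, 0.07 for Sqstm1 and Ulk1 and 0.06 for Map1lc3a. Over all arrays the member median was -0.22, against 0.05 for all probes, and 2.79% of all probes passed in that comparison. KO arrays lay below WT arrays without overlap for 4 of 14 probes, those of Bnip3, the brighter probes of Bnip3l and Map1lc3b, and the second Ulk1 probe, against 4.08% of all probes. Under vehicle the differences were between -0.25 for Bnip3 and 0.24 for Map1lc3a and Tfeb, with adjusted p from 0.625 to 0.998, a member median of -0.03 and 0.231% of all probes past the threshold. The interaction passed for 0 of the 32401 probes (4197, or 13.0%, had an unadjusted p under 0.05), and for the members its adjusted p was 0.383 to 0.963. The 10 members' interaction values had a median of -0.13, against 0.09 for all probes.

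Some arrays were high for most members. The 3 arrays of slide 7, dexamethasone-treated KO replicate 2, vehicle-treated KO replicate 1 and vehicle-treated WT replicate 3, held the highest level of their group for 8, 6 and 8 of 10 members, and for 35.1%, 34.7% and 36.7% of all probes. Dexamethasone-treated WT replicate 2 held the highest of its group for 6 of 10 members, and for 30.6% of all probes. Without that array the WT change was 0.49 for Bnip3 (adjusted p 0.0047), 0.47 for Gabarapl1 (adjusted p 0.0484) and 0.34 for Bnip3l (adjusted p 0.0990). The same array had the highest slow-fibre marker median, 2.39 above the mean of all arrays, where the other dexamethasone-treated WT arrays were at -0.42 to 0.96. The slow-fibre medians were -1.34 to 1.88 in dexamethasone-treated KO muscle, against -1.44 to 1.12 in vehicle-treated KO muscle, and -0.42 to 2.39 in dexamethasone-treated WT muscle, against -2.38 to 0.92 in vehicle-treated WT muscle. None of the 6 slow-fibre markers passed with dexamethasone in either genotype, and their median changes were 0.58 in KO muscle and 1.80 in WT muscle.

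**Figure D3:**
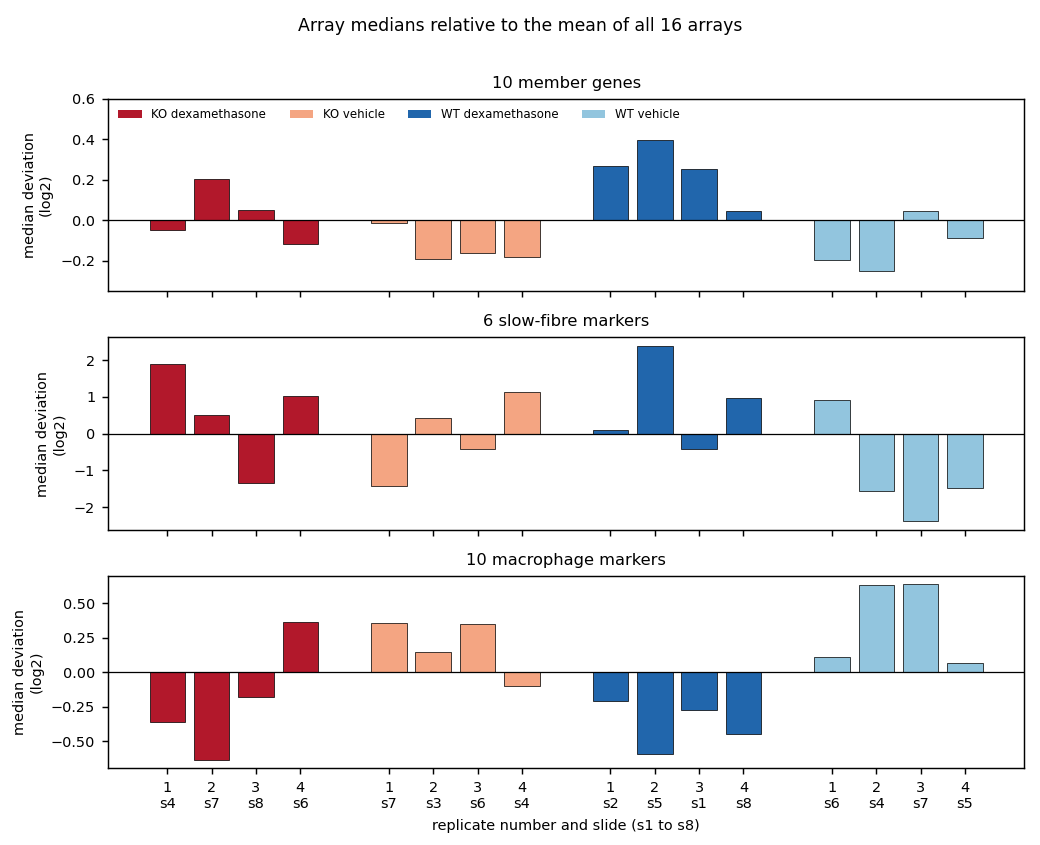
Median deviation from the mean of all 16 arrays, in log2 units, of the 10 members, of 6 slow-fibre markers and of 10 macrophage markers, with 1 bar per array marked with its slide and the groups in order along the horizontal axis. Dexamethasone-treated WT replicate 2 is the highest array for the members (0.39) and for the slow-fibre markers (2.39).

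Macrophage markers, read as a list of 10 genes, fell for some genes where members rose. Their array medians were -0.63 to 0.37 in dexamethasone-treated KO muscle, against -0.10 to 0.36 in vehicle-treated KO muscle, and -0.59 to -0.21 in dexamethasone-treated WT muscle, against 0.07 to 0.64 in vehicle-treated WT muscle. With dexamethasone 1 of 10 markers fell in KO muscle and 5 of 10 fell in WT muscle, with median changes of -0.35 and -0.62. Endothelial markers fell for 4 of 6 genes in KO muscle, with a median of -0.58, and for 0 of 6 in WT muscle. The part of slow fibres, macrophages or endothelial cells in the members' values was not tested.

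Other genes of the pathway were read from 5 lists by role, 93 genes in all, of which 87 were tested. The lists were chosen with earlier results of these data known. Their counts, here and by list below, are therefore not independent of the data and do not test for an excess over all genes. With dexamethasone 10 of the 87 rose and 2 fell in KO muscle, and 9 rose and 2 fell in WT muscle. Of the brightest probes of all genes with a symbol, 5.50% rose and 6.02% fell in KO muscle, and 6.19% rose and 6.21% fell in WT muscle. The median change over all 87 was 0.00 in KO muscle and 0.12 in WT muscle. Those that rose in both genotypes were Sesn1, Retreg1, Npc1, Atp6v1h, Bcl2l1 and Trp53inp1. By the brightest probe of each gene, all rose by more than any of the 10 members did.

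Of 18 further genes of initiation and membrane nucleation, 2 rose in KO muscle and 2 in WT muscle, with median changes of -0.04 and 0.26. Uvrag, which encodes a Beclin 1 partner, changed by 0.56 (adjusted p 0.00725) and Vmp1, which encodes a membrane protein of the endoplasmic reticulum needed for autophagosome formation, by 0.51 (adjusted p 0.0150) in KO muscle. Nrbf2 and Atg14, which encode further subunits of the same lipid kinase complex, changed by 0.61 (adjusted p 0.0171) and 0.37 (adjusted p 0.0441) in WT muscle. Another Atg14 probe gave -0.75 in WT muscle (adjusted p 0.123), and another Vmp1 probe gave 0.29 in KO muscle (adjusted p 0.0852). Of 11 genes of ATG8 conjugation and further ATG8 proteins, 1 fell in KO muscle and none passed in WT muscle, with medians of -0.06 and 0.07. It was Atg4d, a protease that processes ATG8 proteins (-0.37, adjusted p 0.0118), whose second probe gave 0.20 (adjusted p 0.608). The Atg4d call was lost with the mean of its probes (-0.08, adjusted p 0.777), with arrays scaled to their median, with normexp and with only the groups compared.

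Of 15 receptor genes, 2 rose and 1 fell in each genotype, with medians of 0.07 and 0.24. Retreg1 encodes FAM134B, a receptor for autophagy of the endoplasmic reticulum. Its levels were 4.64, 4.98, 4.95 and 4.90 in dexamethasone-treated KO muscle, against 3.59, 3.88, 3.46 and 3.65 in vehicle-treated KO muscle, and 4.88, 6.02, 5.19 and 5.15 in dexamethasone-treated WT muscle, against 3.73, 3.43, 4.03 and 3.82 in vehicle-treated WT muscle. The groups did not overlap, and Retreg1 rose 2.33-fold in KO muscle (1.22, adjusted p 0.00175) and 2.94-fold in WT muscle (1.56, adjusted p 0.000331). The other receptor genes that passed were Nbr1 (0.25, adjusted p 0.0471) and Fkbp8 (-0.55, adjusted p 0.0163) in KO muscle, and Tax1bp1 (0.42, adjusted p 0.0308) and Wdfy3 (-1.08, adjusted p 0.000686) in WT muscle. Other probes of Nbr1 gave -0.04 and -0.28 in KO muscle, and other probes of Tax1bp1 gave -0.28 (adjusted p 0.0544) and 0.33 (adjusted p 0.220) in WT muscle.

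Wdfy3, which encodes the scaffold protein ALFY, also differed between genotypes under dexamethasone. Its levels were -1.96, -1.98, -1.90 and -2.11 in dexamethasone-treated KO muscle, against -3.20, -2.62, -3.02 and -2.91 in dexamethasone-treated WT muscle. The groups did not overlap, and Wdfy3 was higher in KO muscle by 0.95 (adjusted p 0.00507). In that comparison 2 of the 87 genes passed, both higher in KO muscle, where 1.05% of the brightest probes of all genes were higher. The second Wdfy3 probe gave 0.69 (adjusted p 0.493), and the interaction was 0.85 (95% interval 0.37 to 1.33, adjusted p 0.156). The call between genotypes was lost in 5 alternatives: with normexp background correction (0.00, adjusted p 0.996), slide as a fixed block (0.75, adjusted p 0.259), the mean of both probes (0.82, adjusted p 0.165), arrays scaled to their median (0.76, adjusted p 0.0703) and the deposited log2 values (0.55, adjusted p 0.0529). The fall in WT muscle was lost with normexp (-0.25, adjusted p 0.985) and with slide as a fixed block (-0.87, adjusted p 0.0949).

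Of 26 genes of the lysosome and of the TFEB family, 2 rose in KO muscle and 2 rose and 1 fell in WT muscle, with medians of -0.06 and 0.04. Npc1 encodes a cholesterol transporter of the lysosomal membrane. Its levels were 2.55, 2.70, 2.67 and 2.59 in dexamethasone-treated KO muscle, against 1.45, 1.79, 1.28 and 1.23 in vehicle-treated KO muscle, and 2.67, 2.76, 2.65 and 2.55 in dexamethasone-treated WT muscle, against 1.01, 1.01, 1.28 and 1.27 in vehicle-treated WT muscle. Npc1 rose 2.28-fold in KO muscle (1.19, adjusted p 3.42e-05) and 2.86-fold in WT muscle (1.51, adjusted p 8.68e-06), with no overlap. Atp6v1h, which encodes a subunit of the proton pump that acidifies lysosomes, rose 1.94-fold in KO muscle (0.96, adjusted p 8.81e-05) and 2.36-fold in WT muscle (1.24, adjusted p 1.86e-05), and its second probe passed in both genotypes (0.91 and 1.23). Ctss, which encodes cathepsin S, a protease abundant in macrophages, fell in WT muscle (-0.71, adjusted p 0.0440), where 5 of 10 macrophage markers fell too. The part of macrophages in the Ctss value was not tested, and the Ctss call was lost in 18 of 29 alternatives.

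Of 17 regulators and fusion genes, 4 rose in KO muscle and 3 in WT muscle, with medians of 0.13 and 0.16. Sesn1 encodes sestrin 1, an inhibitor of mTORC1 signalling. Its levels were 4.91, 5.19, 5.07 and 4.39 in dexamethasone-treated KO muscle, against 2.74, 2.64, 2.55 and 2.95 in vehicle-treated KO muscle, and 4.66, 5.75, 4.70 and 4.56 in dexamethasone-treated WT muscle, against 2.98, 3.02, 2.97 and 3.16 in vehicle-treated WT muscle. Sesn1 rose 4.51-fold in KO muscle (2.17, adjusted p 5.66e-05) and 3.69-fold in WT muscle (1.88, adjusted p 0.000218), and its other 2 probes rose in both genotypes, by 1.78 and 2.11 in KO muscle and by 2.01 and 2.11 in WT muscle. Bcl2l1 encodes BCL-XL, a survival protein that binds Beclin 1, and rose 1.96-fold in KO muscle (0.97, adjusted p 0.00173) and 2.37-fold in WT muscle (1.24, adjusted p 0.000319). Of its other 2 probes, both passed in KO muscle (0.68 and 0.81) and 1 passed in WT muscle (0.69, adjusted p 0.0252), while the other gave 0.11 (adjusted p 0.752). Snap29, which encodes a SNARE protein of autophagosome and lysosome fusion, also rose in KO muscle (0.32, adjusted p 0.0396). Its other 2 probes did not pass there (0.25, adjusted p 0.339, and 0.24, adjusted p 0.149). Among the smaller changes, the calls of Nbr1, Atg14, Ctss, Snap29 and Tax1bp1 were lost with 15, 12, 11, 10 and 6 of the 16 arrays left out in turn. Those of Fkbp8 were lost without vehicle-treated KO replicate 1 or dexamethasone-treated KO replicate 3, of Vmp1 without dexamethasone-treated KO replicate 3 or 4, and of Nrbf2 without vehicle-treated WT replicate 2.

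Trp53inp1 encodes a stress-induced protein that binds ATG8 proteins. Its levels were 2.87, 2.69, 2.66 and 2.57 in dexamethasone-treated KO muscle, against 0.92, 1.21, 1.17 and 1.12 in vehicle-treated KO muscle, and 2.20, 2.57, 1.98 and 1.85 in dexamethasone-treated WT muscle, against 1.19, 1.15, 1.21 and 1.26 in vehicle-treated WT muscle. It rose 3.02-fold in KO muscle (1.59, adjusted p 8.94e-06) and 1.93-fold in WT muscle (0.95, adjusted p 0.000539). Its second probe passed in KO muscle (1.62, adjusted p 0.000226) and did not pass in WT muscle (0.59, adjusted p 0.0862). Under dexamethasone the KO and WT groups met at 2.57, the lowest KO array and the highest WT array, and the difference of 0.55 passed (adjusted p 0.0450). That call held without vehicle-treated KO replicate 1 or dexamethasone-treated WT replicate 2 and was lost when any 1 of the other 14 arrays was left out (0.45 to 0.59, adjusted p 0.0563 to 0.124). In the same comparison of genotypes the second probe gave 0.75 (adjusted p 0.0791). The interaction of the brighter probe was 0.65 (95% interval 0.24 to 1.06, adjusted p 0.190).

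**Figure D4:**
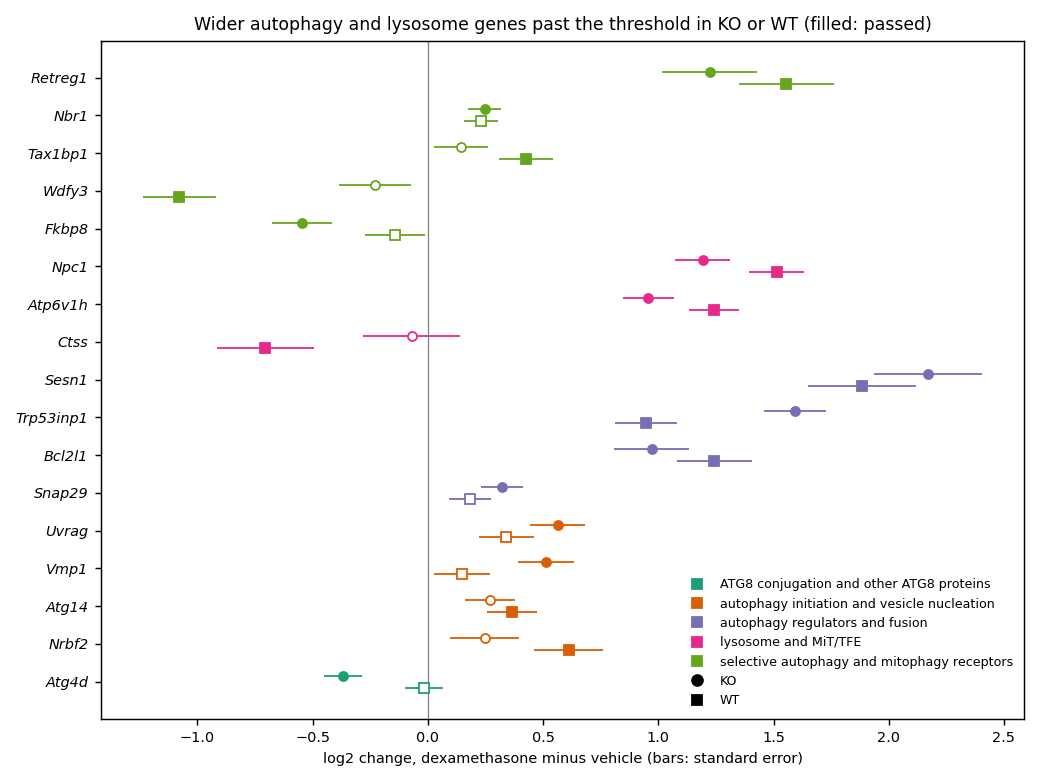
Log2 change with dexamethasone, with SE, of the 17 further pathway genes that passed in KO muscle (circles) or WT muscle (squares), with filled symbols for adjusted p under 0.05. Sesn1, Retreg1, Npc1, Atp6v1h, Bcl2l1 and Trp53inp1 are filled in both genotypes, and Wdfy3 is filled only in WT muscle, at -1.08.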

How the data were processed

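Quadriceps RNA of 16 mice was measured on 1-colour Agilent 4x44K arrays, 1 per animal, with groups and replicate numbers from the sample titles. Per the labels' protocols, cDNA was amplified from lysate with a whole-transcript kit and labelled with Cy3. The deposited scanner files hold intensity on a linear scale. Per the file headers they come from Feature Extraction 10.7.3.1 with a grid of build mm9, and the processed signal is background-subtracted and not normalized between arrays. A deposited table holds log2 values of the same arrays, whose normalization the sources used here do not state.

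Levels are log2 of the processed signal minus its 75th percentile on that array, control probes left out. Outlier-flagged spots were left out, spots of a probe were averaged, and the 32401 probes well above background on at least 4 arrays were fitted with 4 group means (limma 3.58.1, R 4.3.3; lmFit and eBayes, Benjamini-Hochberg adjusted over all probes, two-sided, threshold 0.05, 5 comparisons). Accessions were matched to RefSeq (GRCm38.p6), which named 24844 of 41174 probes. A gene is called by its brightest probe over the 16 arrays. Named genes are all members, Klf15, Fkbp5 and the listed pathway genes that passed, up to 5 per list and comparison. The members and lists were chosen with earlier results of these data known. Alternatives were other scalings, normexp (offset 50, on the median signal, as the files hold no mean signal), the deposited log2 values, other filters, mean of probes, slide and replicate blocks, only the groups compared, and left-out arrays.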

Additional observations from a re-analysis of the deposited data

Results flagged for a closer look

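In 2 of the 56 groups of 4 arrays examined over the 14 member probes, 1 array lay far from the other 3 by Dixon's ratio of gap to range, past the 95% critical value, which chance passes in about 1 group in 20. Both cases were dexamethasone-treated WT replicate 2. For Gabarapl1, probe A_52_P633410, the ratio was 0.900, with a level of 6.03 where the nearest array of the group was at 5.53. For Map1lc3b, probe A_51_P126177, it was 0.914, with a level of 6.20 and the nearest array at 5.87. Without this array the WT change with dexamethasone was 0.47 for Gabarapl1 (limma, adjusted p 0.0484) and 0.21 for Map1lc3b (adjusted p 0.103). The same array had the highest slow-fibre marker median of the 16 arrays, 2.39, and the part of fibre type in these levels was not tested.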

How the results depend on the processing

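Bnip3, Gabarapl1 and Bnip3l kept the sign of their passing changes in all 29 alternatives. The Gabarapl1 call was lost in 21 alternatives in KO muscle and 6 in WT muscle, the Bnip3l call in 19 in WT muscle. Sesn1, Retreg1, Npc1, Atp6v1h and Bcl2l1 passed in all 29 in both genotypes. Members that rose with dexamethasone in KO muscle numbered 0 with median scaling or normexp, 1 with quantile scaling, no filter, a replicate block, only the groups compared or without the 2 arrays high in neutrophil markers, 4 with slide as a random block, and 1 to 3 with 1 array left out. In WT muscle they numbered 5 with median scaling, 0 with normexp or a fixed slide block, 1 with a replicate block or only the groups compared, and 1 to 4 with 1 array left out. Counts of all probes passing also moved with the setting, as listed below for several of them. Median scaling also turned the median of all probes in the WT comparison from negative to positive. The member counts therefore do not describe the members alone. Under dexamethasone 1 member, Bnip3l, passed between genotypes with a random slide block (-0.39, adjusted p 0.0467).

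Probes passing between genotypes under dexamethasone, 904, became 269 (median), 574 (quantile), 68 (normexp), 510 (brightest probe only), 507 (mean of probes), 53 (fixed slide), 1643 (random slide), 532 (replicate block), 158 (groups compared), 491 (without the neutrophil-high arrays) and 523 to 971 (1 array left out). Under vehicle, 75 became 38 (median), 18 (normexp), 22 (fixed slide), 684 (random slide), 35 (groups compared) and 46 to 88 (1 array left out). With dexamethasone in KO muscle, 3372 became 1891 (median), 485 (normexp), 6643 (random slide) and 2375 to 3565 (1 array left out). In WT muscle, 3874 became 240 (normexp), 1149 (fixed slide), 2293 (groups compared) and 2345 (without vehicle-treated WT replicate 2) to 3932. The interaction, 0, became 3 (deposited values), 14 (filter on all arrays), 714 (random slide), and 0 to 108 with 1 array left out, 108 without vehicle-treated KO replicate 4 and 1 without dexamethasone-treated WT replicate 4, and it cannot be fitted with only the groups compared. Of passing probes, the share higher under dexamethasone in KO muscle was 49.9%, and 42.1% with median scaling or 60% with normexp. In WT muscle it was 44.7%, and 80.9% (median), 56.4% (quantile), 57.9% (normexp) or 56.8% (deposited). Between genotypes under dexamethasone it was 64.2%, and 14.9% (median), 50.9% (quantile), 22.1% (normexp) or 51.0% (deposited). The cause of these shifts was not tested.

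Signs turned for 20 of 75 gene values, 2 of which had passed: with the mean of probes Atg14 gave -0.19 in WT muscle and Nbr1 -0.023 in KO muscle. With that mean Bnip3l in KO muscle gave -0.0049, Map1lc3b under vehicle 0.040 and the Ulk1 interaction -0.038. Median scaling gave Bnip3l 0.061, Ctsl 0.047, Map1lc3b 0.098 and Sqstm1 0.091 between genotypes under vehicle, Ctsl -0.17 under dexamethasone, and interactions of -0.22 for Ctsl and Ulk1. The deposited values gave Bnip3l 0.0047, Map1lc3b 0.053 and Sqstm1 0.13 between genotypes under vehicle, Map1lc3a 0.00022 under dexamethasone, and changes of Bnip3l -0.0014, Map1lc3b -0.0045 and Sqstm1 -0.16 in KO muscle. Normexp gave Bnip3l 0.12, Ctsl 0.084, Map1lc3b 0.13, Sqstm1 0.19 and Ulk1 0.038 between genotypes under vehicle, Map1lc3a 0.12, Map1lc3b 0.022, Sqstm1 0.025 and Ulk1 0.095 under dexamethasone, and changes of Bnip3l -0.0037 and Sqstm1 -0.065 in KO muscle. Quantile scaling gave Bnip3l 0.0016, Ctsl 0.0044, Map1lc3b 0.079 and Sqstm1 0.079 under vehicle and Sqstm1 -0.097 in KO muscle. A fixed slide block gave Bnip3l 0.0090 and Map1lc3b 0.047 under vehicle, Ctsl -0.029, Sqstm1 0.049 and Ulk1 0.025 under dexamethasone, and interactions of -0.016 for Ctsl and 0.12 for Sqstm1. A random one gave Ctsl -0.0045 under dexamethasone, Map1lc3b 0.030 under vehicle and a Sqstm1 interaction of 0.030. Without the 2 neutrophil-high arrays Ctsl was -0.065 and Sqstm1 0.053 under dexamethasone, with interactions of -0.0057 and 0.069. With 1 array left out, ranges that crossed 0 were -0.091 to 0.076 (Bnip3 interaction), -0.13 to 0.022 (Bnip3l, genotypes under vehicle), -0.0040 to 0.15 (Bnip3l, dexamethasone in KO), -0.058 to 0.085 (Ctsl, genotypes under dexamethasone), -0.14 to 0.054 (Gabarapl1 interaction), -0.057 to 0.018 (Map1lc3b, genotypes under vehicle), -0.12 to 0.12 (Sqstm1, genotypes under vehicle), -0.039 to 0.15 (Sqstm1, dexamethasone in KO), -0.21 to 0.027 (Sqstm1 interaction), -0.18 to 0.0016 (Ulk1, genotypes under dexamethasone) and -0.024 to 0.17 (Ulk1 interaction).

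Deviations of same-numbered samples correlated at -0.66 to 0.41, and the main fit does not pair samples by number. Same-numbered arrays lay on different slides, so these correlations cannot exclude a pairing of animals. With slide as a fixed block, the 3 arrays alone on theirs do not contribute. The main fit has no slide term, so its p-values rest on the spread between arrays, 1 per animal and 4 per group. In that spread, differences between animals and between slides are mixed. With slide as a random block, the fitted correlation between arrays of a slide was 0.56.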
